A study of Mus musculus with 6 samples.

Results

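The genes Hmox1, Blvrb, Slc40a1, Spic, Trf, Tfrc, Fth1 and Ftl1 take part in the recycling of heme and iron, and their transcripts were compared between CD36+ NK and CD36- NK cells of the fibrotic mouse liver. These 8 genes were taken by symbol from the 57180 genes of the deposited table, and each symbol matched 1 row. The cells came from male C57BL/6J mice, 6 to 8 weeks old, in which liver fibrosis had been induced by intraperitoneal CCl4, a hepatotoxin, given 2 times per week over 4 weeks. Livers were taken 48 h after the last injection, and CD3- NK1.1+ cells were sorted by surface CD36, a receptor that takes up fatty acids and oxidised lipoproteins. All 6 libraries, 3 CD36+ NK and 3 CD36- NK, were therefore from CCl4-treated mice, and neither group had an untreated counterpart here. The labels do not say how many mice went into a sample or whether samples were separate mice, so the p-values measure the spread between these samples, which may be partly technical.

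Heme from aged red blood cells is broken down by macrophages, above all in the spleen's red pulp and by the Kupffer cells of the liver. Heme oxygenase 1 (Hmox1) opens the ring and releases iron, carbon monoxide and biliverdin, and biliverdin reductases, Blvrb among them, reduce biliverdin. The iron is stored in ferritin, a shell of heavy (Fth1) and light (Ftl1) chains, or leaves the cell through ferroportin (Slc40a1), the known iron exporter of animal cells. In plasma it is carried by transferrin (Trf), and cells that need iron take transferrin up through the transferrin receptor (Tfrc). Spi-C (Spic) is a transcription factor of the Ets family on which red pulp macrophages depend and which is induced by heme.

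Several of these transcripts carry an iron-responsive element, a short hairpin that iron regulatory proteins bind when iron is low. In a 5′ untranslated region the hairpin serves to block translation, and in the 3′ untranslated region of Tfrc it serves to protect the transcript from decay. The elements are shown because they mark which of the 8 transcripts carry this hairpin, and on which side of the coding sequence. Counts do not measure translation, whereas a change in transcript decay would alter them. The search was made in GENCODE M21 transcripts of GRCm38 for a C, 5 bases, the loop CAGTGN and 5 further bases that pair with the first 5, G-T pairs allowed. Such an element was present in at least 1 transcript of 294 of 21901 coding genes (1.34%). For each of the 8 genes, 1 coding transcript was taken, that with the longest coding sequence, whereas the background counts a match in any transcript. The element was found in those of Slc40a1, Fth1, Ftl1 and Tfrc. No match to these letters was found in those of Hmox1, Blvrb, Spic and Trf, and the result covers these transcripts only. The sequences are given 5′ to 3′ on the transcript's strand, with the 6 bases of the loop in capitals, and each is printed, and its position given, with the 4 bases on either side of the element. The element of Slc40a1 lies in the 5′ untranslated region at chr1:45925467-45925491 on the minus strand, that of Fth1 in the 5′ untranslated region at chr19:9982734-9982758 on the plus strand, and that of Ftl1 in the 5′ untranslated region at chr7:45459781-45459805 on the minus strand. Tfrc held 4 elements in its 3′ untranslated region on the plus strand, at chr16:32631221-32631245, chr16:32631600-32631624, chr16:32631665-32631689 and chr16:32631712-32631736.
Slc40a1: acttcagctaCAGTGTtagctaagt
Fth1: cctgcttcaaCAGTGCttgaacgga
Ftl1: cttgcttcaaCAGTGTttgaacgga
Tfrc element 1: ttatcggaagCAGTGCcttccataa
Tfrc element 2: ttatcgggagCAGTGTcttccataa
Tfrc element 3: atatcggagaCAGTGAtctccatat
Tfrc element 4: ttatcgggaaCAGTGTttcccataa
The Fth1 and Ftl1 sequences had the same base at 23 of 25 positions.

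The libraries held from 10292480 to 13787189 counts. Cd36 itself was measured at 203 ± 82.1 CPM (counts scaled to the TMM-adjusted library size; SD, n = 3) in CD36+ NK and 21.04 ± 9.37 CPM in CD36- NK (log2 fold change 3.27, edgeR adjusted p = 0.00615), and every library titled CD36+ lay above every library titled CD36-. The names of the sequencing libraries use the CD36 sign differently from the titles, and the titles were followed. The marker genes of NK cells were lower in CD36+ NK, with 11 of 11 called and a summed level of 1173 to 1434 CPM against 6142 to 8014 CPM. Markers of several other cell types stood higher instead. All 6 red pulp macrophage markers (Vcam1, Cd163, Adgre1, Itgad, Treml4 and Pparg) had higher levels in CD36+ NK and 4 were called, with summed levels of 1139 to 3252 CPM against 138 to 657 CPM. Of the 12 macrophage and Kupffer cell markers, 10 were tested, 10 were higher and 3 were called, and the sums ranged from 6624 to 9292 CPM against 2422 to 5745 CPM. Within that list Lyz2 (log2 fold change 0.09) was the most abundant gene, and Clec4f, which defines Kupffer cells, had 0 counts in CD36+ NK replicate 3 and in all CD36- NK libraries, 17 in CD36+ NK replicate 1 and 624 in CD36+ NK replicate 2. The 10 erythroid markers were all higher, with 5 called and sums of 359.7 to 815 CPM against 79.3 to 179.9 CPM, whereas 0 of 10 hepatocyte markers had enough counts to be tested. All 6 B cell markers were higher without overlap, as were 17.0% of all genes. The B cell sums were 4123 to 4599 CPM against 2725 to 3130 CPM. Of these markers 5 passed the adjusted p, where 5.07% of all genes did with higher levels, and 0 the fold threshold as well. The T cell markers Cd4 and Cd8a, 2 of 6, and 2 of 6 dendritic cell markers were called higher. Cd3d, however, was at 35.3, 1.32 and 1.33 CPM in CD36+ NK replicates 1 to 3 against 5.5 to 7.5 CPM in CD36- NK. Cd3e and Cd3g likewise exceeded the CD36- NK libraries only in CD36+ NK replicate 1. The part of these marker differences in the values below was not tested. In RNA of a sorted population, a difference in the number of cells of a type and a difference in RNA per cell cannot be told apart.

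All 8 genes passed the filter on low counts. A gene was called where edgeR's adjusted p (Benjamini-Hochberg over the 14761 genes tested) was below 0.05 and the fold change exceeded 2. By this rule Blvrb and Trf, 2 of the 8, were called, both higher in CD36+ NK, against a background of 5.96% of all genes called and 2.98% called higher. Without the fold threshold Fth1 was added, giving 3 of 8, all higher, where the background was 10.5% and 5.07% for higher levels. All 8 had a log2 fold change above 0, as did 51.9% of all genes, with a median log2 fold change of 1.63 against 0.01 over all genes. In 7 of the 8, every CD36+ NK library lay above every CD36- NK library, whereas 32.8% of all genes did not overlap in either direction and 17.0% were higher, and Tfrc was the exception. The genes with the largest differences, Slc40a1, Spic and Hmox1, also had the largest standard errors (0.76, 0.88 and 0.68 on the log2 scale) and were not called by edgeR. DESeq2 called Hmox1 (adjusted p = 0.0176) and Slc40a1 (0.0149) but not Spic (0.0588).

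**Figure D1:**
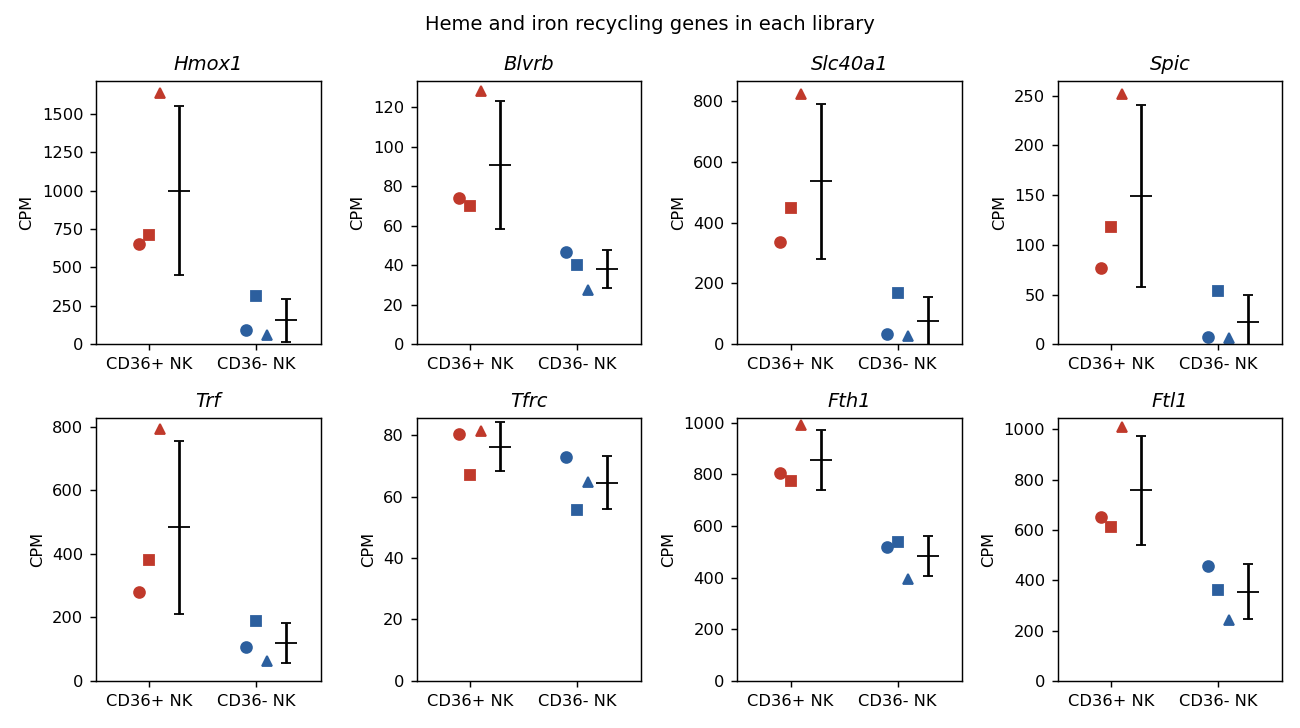
CPM (y axis, linear from 0) of each of the 8 genes in CD36+ NK (red) and CD36- NK (blue) libraries, with circles, squares and triangles for replicates 1, 2 and 3, and black lines for the mean ± SD of 3 libraries; the lower SD bars of Slc40a1 and Spic in CD36- NK end below 0 and are clipped there. CD36+ NK replicate 3 is the highest point in every panel. CD36- NK replicate 2 stands above the other CD36- NK libraries for Hmox1, Slc40a1, Spic and Trf and, narrowly, for Fth1.

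Positions of genes are those of the deposited table, which names no build and differs from GRCm38. Hmox1 (ENSMUSG00000005413, chromosome 8, 75820249 to 75827217, plus strand), the inducible heme oxygenase, was among the 8 genes the one with the highest mean level in CD36+ NK. It was measured at 654, 712 and 1632 CPM in CD36+ NK replicates 1 to 3 and at 93.9, 315 and 59.4 CPM in CD36- NK replicates 1 to 3. The groups did not overlap, but CD36- NK replicate 2 lay nearer to the CD36+ NK libraries than the other CD36- NK libraries did. The means were 999 ± 548 and 156 ± 139 CPM (SD, n = 3), a log2 fold change of 2.68 ± 0.68 (SE), that is 6.40-fold, with a 95% interval of 1.08 to 4.28. The edgeR adjusted p of 0.0501 did not pass the threshold. With CD36- NK replicate 2 left out the log2 fold change was 3.70 and the edgeR adjusted p 0.00991, whereas over all alternatives the adjusted p ranged from 0.00991 to 0.149. Hmox2, the constitutive heme oxygenase, was measured at 53.9 to 65.6 CPM against 42.7 to 62.4 CPM (log2 fold change 0.27, edgeR adjusted p = 0.342). The ratio of Hmox1 to Hmox2 counts was 9.96, 13.2 and 25.3 in CD36+ NK and 1.50, 7.37 and 1.26 in CD36- NK. Thus in all 6 libraries Hmox1 counts exceeded Hmox2 counts, and the ratio did not overlap between the groups (difference of mean log2 ratios 2.63, two-sided exact permutation p = 0.1, the smallest that 3 against 3 libraries allow, adjusted p = 0.3 over the 9 ratios examined).

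Blvrb (ENSMUSG00000040466, chromosome 7, 27147403 to 27165569, plus strand), which reduces biliverdin and flavins, rose in CD36+ NK. Its level was 74.0, 70.0 and 128 CPM in CD36+ NK replicates 1 to 3 and 46.8, 40.1 and 27.4 CPM in CD36- NK replicates 1 to 3. The lowest CD36+ NK library was thus 1.50 times the highest CD36- NK library. The means of 90.8 ± 32.6 and 38.1 ± 9.83 CPM (SD, n = 3) gave a log2 fold change of 1.25 ± 0.29 (SE), or 2.38-fold, with an edgeR adjusted p of 0.0373. Among CD36+ NK libraries the call was lost on leaving out replicate 2 (edgeR adjusted p = 0.0639) or 3 (0.0835), among CD36- NK libraries on leaving out replicate 1 (0.0749), 2 (0.0638) or 3 (0.107). It was also lost with no filter (0.0505 by edgeR) and with the form of the library name as a block (0.0553), and the range over all alternatives was 0.000243 to 0.107. Blvra, the other biliverdin reductase, was measured at 38.5 to 62.6 CPM against 18.5 to 27.1 CPM, a log2 fold change of 0.98 (edgeR adjusted p = 0.0390) that stayed just under the fold threshold. The ratio of Blvrb to Blvra ranged from 1.64 to 2.05 in CD36+ NK and from 1.48 to 1.73 in CD36- NK and overlapped between the groups (two-sided exact permutation p = 0.2, adjusted p = 0.337).

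Slc40a1 (ENSMUSG00000025993, chromosome 1, 45947228 to 45965683, minus strand), the iron exporter, had the highest fitted log2 fold change of the 8 genes, within 1 SE of those of Spic and Hmox1. CD36+ NK replicates 1 to 3 had 335, 447 and 824 CPM, and CD36- NK replicates 1 to 3 had 33.6, 169 and 26.0 CPM. CD36- NK replicate 2 held 5.04 times the level of CD36- NK replicate 1 and 6.51 times that of replicate 3, yet the lowest CD36+ NK library was 1.98 times higher still. The means were 535 ± 256 and 76.3 ± 80.6 CPM (SD, n = 3), with a log2 fold change of 2.81 ± 0.76 (SE), 7.02-fold, a 95% interval of 1.02 to 4.60 and an edgeR adjusted p of 0.0604, which did not pass. Without CD36- NK replicate 2 the log2 fold change was 4.16 with an edgeR adjusted p of 0.00583, and with the form of the library name, which the replicate 1 libraries of both groups share, as a block it was 2.90 with an edgeR adjusted p of 0.0496, in a range over all alternatives of 0.00583 to 0.167.

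Spic (ENSMUSG00000004359, chromosome 10, 88510634 to 88520877, minus strand) followed Slc40a1 closely. It had 77.0, 118 and 252 CPM in CD36+ NK replicates 1 to 3 and 7.0, 53.8 and 6.4 CPM in CD36- NK replicates 1 to 3. The groups did not overlap, and CD36- NK replicate 2 held 7.69 times the level of CD36- NK replicate 1. The log2 fold change was 2.73 ± 0.88 (SE), with means of 149 ± 91.6 and 22.4 ± 27.2 CPM (SD, n = 3), a 95% interval of 0.67 to 4.80 and an edgeR adjusted p of 0.0956, which did not pass. Leaving out CD36- NK replicate 2 gave a log2 fold change of 4.46 and an edgeR adjusted p of 0.00887, and all alternatives together ranged from 0.00887 to 0.258.

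Of the 2 genes of transferrin-bound iron, Trf rose and Tfrc did not pass the test. Trf (ENSMUSG00000032554, chromosome 9, 103081200 to 103107643, minus strand), the plasma carrier that hepatocytes secrete, was measured at 278, 381 and 792 CPM in CD36+ NK replicates 1 to 3 and at 106, 189.6 and 63.7 CPM in CD36- NK replicates 1 to 3. Albumin (Alb), the most abundant hepatocyte marker, had 30, 106 and 9 counts in CD36+ NK and 9, 0 and 0 counts in CD36- NK, and Trf had 652 to 9523 counts per library. The part of hepatocyte RNA in the Trf level was not tested. The Trf means of 484 ± 272 and 119.7 ± 64.1 CPM (SD, n = 3) differed by a log2 fold change of 2.01 ± 0.50 (SE), 4.04-fold, with an edgeR adjusted p of 0.0477. This call was close to the threshold and was lost without CD36+ NK replicate 2 (edgeR adjusted p = 0.0984) or 3 (0.126) and without CD36- NK replicate 1 (0.146) or 3 (0.131). It was also lost with no filter (0.0617 by edgeR) and with the form of the library name as a block (0.0567), the range over all alternatives being 0.0157 to 0.146.

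Tfrc (ENSMUSG00000022797, chromosome 16, 32427738 to 32451612, plus strand), which carries the 4 elements shown above, was the only one of the 8 whose groups overlapped. Its levels of 80.4, 67.0 and 81.3 CPM in CD36+ NK and 72.9, 55.8 and 64.8 CPM in CD36- NK spanned a narrow range. The log2 fold change was 0.24 ± 0.13 (SE), with a 95% interval of -0.07 to 0.55 and an edgeR adjusted p of 0.301. The upper bound lay below the fold threshold, which is 1 on this scale, and smaller differences in either direction were within the interval. Exporter and receptor were compared within each library, since a ratio of counts does not depend on the scaling of libraries. The Slc40a1 to Tfrc ratio was 4.17, 6.67 and 10.1 in CD36+ NK and 0.461, 3.03 and 0.401 in CD36- NK. In CD36- NK replicates 1 and 3 Tfrc counts therefore exceeded Slc40a1 counts, and in the other 4 libraries the order was the opposite (difference of mean log2 ratios 2.99, two-sided exact permutation p = 0.1, adjusted p = 0.3).

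Both ferritin chains had higher levels in every CD36+ NK library than in any CD36- NK library, with smaller differences than Hmox1 or Slc40a1. Fth1 (ENSMUSG00000024661, chromosome 19, 9957962 to 9962462, plus strand), the chain with ferroxidase activity, was measured at 806, 772 and 989 CPM in CD36+ NK replicates 1 to 3 and at 517, 537 and 394 CPM in CD36- NK replicates 1 to 3. Its means of 856 ± 117 and 483 ± 77.4 CPM (SD, n = 3) gave a log2 fold change of 0.82 ± 0.16 (SE) and the lowest adjusted p of the 8 genes (edgeR adjusted p = 0.0207), but at 1.77-fold it stayed below the fold threshold. Its edgeR adjusted p was above 0.05 on leaving out replicate 2 (0.0546) or 3 (0.0716) of CD36+ NK or replicate 1 (0.0615) of CD36- NK. Ftl1 (ENSMUSG00000050708, chromosome 7, 45107368 to 45109308, minus strand), the light chain, had 650, 613 and 1007 CPM in CD36+ NK and 458, 362 and 240.4 CPM in CD36- NK. The log2 fold change of Ftl1 was 1.10 ± 0.28 (SE), with a 95% interval of 0.44 to 1.75 and an edgeR adjusted p of 0.0501, which did not pass. Ftl1 is uncertain because 59.3% of the 100-base windows of its transcript also occur in the pseudogene Ftl1-ps1, whose row held 1277 to 3719 counts per library, whereas this share was 0.573% for Fth1 and 0 for the other 6 genes. With the pseudogene counts added to Ftl1 the log2 fold change was 0.94 ± 0.27 (SE) with an edgeR adjusted p of 0.0733. Ftl1 was called with DESeq2 (adjusted p = 0.000726) and in edgeR with RLE factors (0.0492), upper-quartile factors (0.0488) or 10 counts required in every library (0.0491), and its range over all alternatives was 0.000726 to 0.141. The Fth1 to Ftl1 ratio of 1.24, 1.26 and 0.982 in CD36+ NK and 1.13, 1.48 and 1.64 in CD36- NK overlapped between the groups (two-sided exact permutation p = 0.3, adjusted p = 0.337).

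To compare the genes with each other, the deposited FPKM values, which are scaled by gene length, were used. Hmox1 had the highest mean level in CD36+ NK, at 416 ± 217 FPKM (SD, n = 3), and was above Ftl1 (232 ± 60.5 FPKM) in 3 of 3 libraries, although their ranges overlapped. In CD36- NK Ftl1 (112 ± 35.1 FPKM), Fth1 (71.4 ± 12.5 FPKM) and Hmox1 (68.1 ± 61.5 FPKM) came first and overlapped in order. Fth1 (123 ± 13.8 FPKM), Trf (93.7 ± 50.1 FPKM), Slc40a1 (48.6 ± 21.9 FPKM), Spic (28.8 ± 17.0 FPKM), Blvrb (20.8 ± 6.90 FPKM) and Tfrc (7.67 ± 0.820 FPKM) followed in CD36+ NK. The remaining order in CD36- NK was Trf (24.2 ± 13.4 FPKM), Blvrb (9.04 ± 2.40 FPKM), Slc40a1 (7.25 ± 7.76 FPKM), Tfrc (6.67 ± 0.830 FPKM) and Spic (4.56 ± 5.58 FPKM). Neighbours in the order were separated beyond their spread only between Ftl1 and Fth1 and between Blvrb and Tfrc in CD36+ NK, and between Trf and Blvrb in CD36- NK, with the reservation on Ftl1 reads given above. Tfrc was thus the lowest of the 8 in CD36+ NK, and by mean Slc40a1 and Spic stood above Blvrb in CD36+ NK and below it in CD36- NK.

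**Figure D2:**
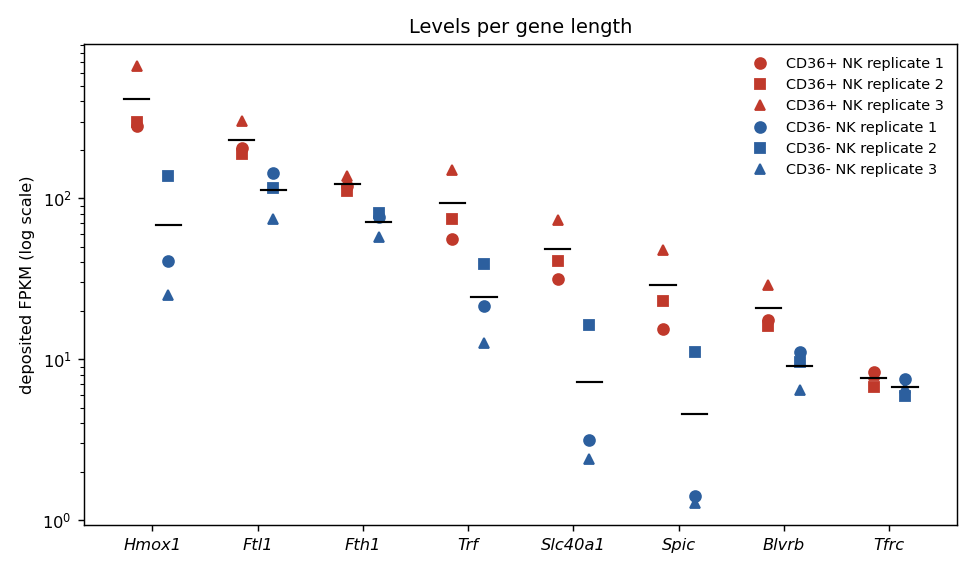
Deposited FPKM (y axis, log scale) of the 8 genes, ordered by their mean in CD36+ NK, with red for CD36+ NK, blue for CD36- NK, symbols for replicates 1 to 3 and a black line for each group's mean. Hmox1 leads in CD36+ NK at a mean of 416 FPKM and Tfrc is the lowest there at 7.67 FPKM, and the spread of the blue points is widest for Spic, Slc40a1 and Hmox1.

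The 8 genes varied to different extents between libraries of a group. Hmox1, Slc40a1 and Spic were 3.36, 5.04 and 7.69 times higher in CD36- NK replicate 2 than in CD36- NK replicate 1, and Trf was 1.79 times higher. Blvrb, Tfrc, Fth1 and Ftl1 were at 0.856, 0.766, 1.04 and 0.791 times in the same comparison. Against CD36- NK replicate 3, however, replicate 2 stood at 5.30, 6.51, 8.34 and 2.98 times for Hmox1, Slc40a1, Spic and Trf, at 1.46, 1.36 and 1.51 times for Blvrb, Fth1 and Ftl1, and at 0.860 times for Tfrc. The macrophage genes C1qa, a complement subunit, and Vcam1, an adhesion molecule of red pulp macrophages, stood at 5.62 and 7.83 times in replicate 2 over replicate 1 and at 5.47 and 8.57 times over replicate 3. Csf1r, the receptor for macrophage colony-stimulating factor, stood at 1.82 and 3.09 times. CD36+ NK replicate 3 exceeded CD36+ NK replicate 1 by 2.50, 2.46, 3.27 and 2.84 times for Hmox1, Slc40a1, Spic and Trf, by 1.74 and 1.55 times for Blvrb and Ftl1, and by 1.23 and 1.01 times for Fth1 and Tfrc. As a description over 6 libraries, deviations from the group means in log2 CPM correlated at Pearson r = 0.995 for Slc40a1 and Spic, 0.981 for Hmox1 and Slc40a1, 0.948 for Hmox1 and Trf, 0.980 for Blvrb and Ftl1 and 0.935 for Blvrb and Fth1. All of these genes share the same 6 libraries and their scaling. Over all pairs of the 7 genes other than Tfrc r was positive, from 0.386 for Spic and Ftl1 to 0.995, with 0.893 for Trf and Fth1 and 0.836 for Hmox1 and Fth1. Pairs with Tfrc ranged from -0.551 with Spic to 0.430 with Ftl1.

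**Figure D3:**
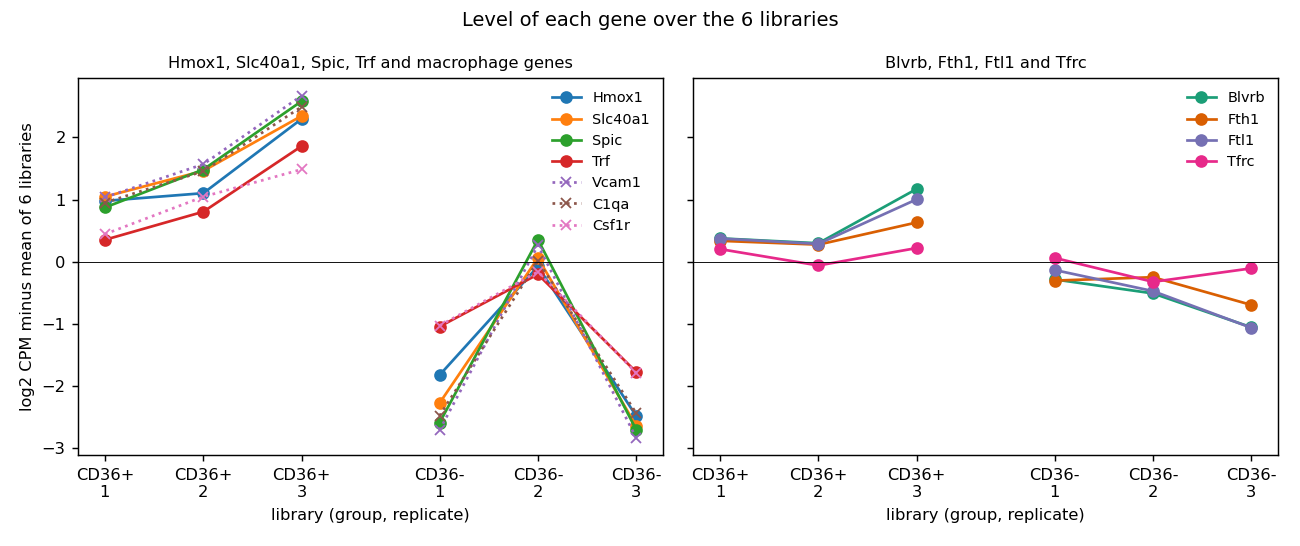
Log2 CPM of each gene minus its mean over the 6 libraries (y axis) in each library (x axis), with solid lines for heme and iron recycling genes and dotted lines for the macrophage genes Vcam1, C1qa and Csf1r; lines only join the points of a gene within a group, and replicates have no order. In the left panel CD36- NK replicate 2 stands above the other CD36- NK libraries for each gene, and in the right panel Blvrb, Ftl1 and Tfrc do not show this.

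The genes whose log2 CPM over the 6 libraries was most like that of Slc40a1, among 10411 genes with a mean log2 CPM of at least 3, were Ccr3 (Pearson r = 0.9990), Clec4n (0.9989), Gfra2 (0.9987), Plxna1 (0.9985) and Fcna (0.9984). Those most like Hmox1 were Clec4n (0.9985), Stab2 (0.9980), Hebp1 (0.9976), Nav1 (0.9967) and Scp2 (0.9966). Clec4n encodes the C-type lectin dectin-2, Fcna a ficolin that macrophages make and Hebp1 a heme-binding protein. Stab2 encodes a scavenger receptor and is one of the 6 sinusoidal endothelial markers used here, of which 3 had enough counts to be tested. With the group means removed, these correlations were between 0.9866 and 0.9988.

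Because macrophage markers were higher in CD36+ NK, Hmox1, Slc40a1, Spic, Trf and Blvrb were also set against macrophage transcripts of the same library. Relative to Csf1r, Slc40a1 was at 0.294, 0.259 and 0.352 in CD36+ NK and at 0.0818, 0.226 and 0.107 in CD36- NK, with no overlap (difference of mean log2 ratios 1.25, two-sided exact permutation p = 0.1, adjusted p = 0.3). The ratios of Hmox1 (0.94), Spic (1.31), Blvrb (-0.75) and Trf (0.03) to Csf1r differed by the mean log2 amounts given and overlapped between the groups, with exact permutation p = 0.2, 0.3, 0.3 and 1. Other macrophage genes, chosen after the values were seen, gave the same direction for some genes and not for others. Relative to Adgre1, the differences of mean log2 ratios were 0.47 for Hmox1, 0.79 for Slc40a1, without overlap, 0.85 for Spic, -1.22 for Blvrb and -0.43 for Trf, the last also without overlap. Relative to C1qa, Slc40a1 ranged from 1.15 to 1.37 in CD36+ NK and from 1.11 to 1.47 in CD36- NK (difference of mean log2 ratios -0.03), and Spic differed by 0.03, although Slc40a1 itself spanned 26.0 to 824 CPM over these libraries. Spic stood at 0.141, 0.149 and 0.149 of Vcam1 in CD36+ NK and at 0.171, 0.168 and 0.173 in CD36- NK (difference of mean log2 ratios -0.22). The differences relative to Vcam1 were -0.60 for Hmox1, -0.28 for Slc40a1, -2.29 for Blvrb and -1.50 for Trf, and the groups did not overlap for Spic and Trf. Blvrb and Trf were lower relative to C1qa in every CD36+ NK library than in any CD36- NK library, with differences of mean log2 ratios of -2.03 and -1.25, and Hmox1 overlapped at -0.35. CD36+ NK replicate 2 held nearly all Clec4f counts. Without it the log2 fold changes were 2.93 for Slc40a1, 2.88 for Spic, 2.87 for Hmox1 and 2.16 for Trf, each above the value with that library. The edgeR adjusted p values were then 0.125, 0.173, 0.0988 and 0.0984. Leaving out CD36+ NK replicate 1 also raised these log2 fold changes, to 3.05, 3.03, 2.90 and 2.28. Leaving out CD36+ NK replicate 3 lowered them to 2.36, 2.12, 2.13 and 1.46. The part of Kupffer cells in these values was not tested. Whether each difference between the groups was also a difference within macrophages was not tested.

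**Figure D4:**
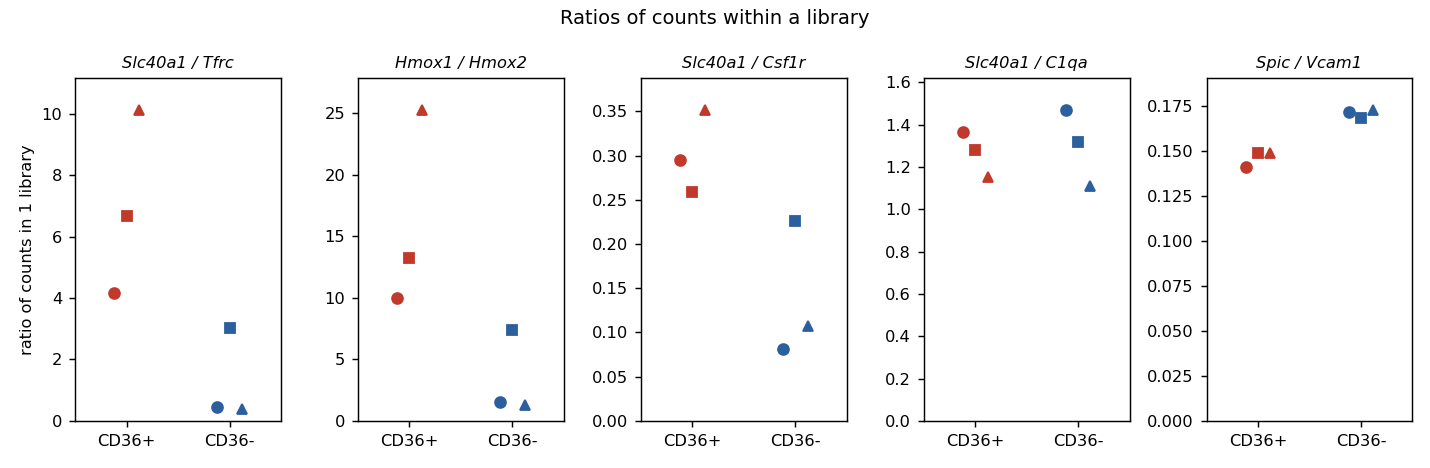
Ratio of the counts of paired genes within a library (y axis of each panel, linear from 0) in CD36+ NK (red) and CD36- NK (blue), with circles, squares and triangles for replicates 1, 2 and 3. The groups are apart for Slc40a1 over Tfrc, Hmox1 over Hmox2 and Slc40a1 over Csf1r, they overlap for Slc40a1 over C1qa, and for Spic over Vcam1 they are apart the other way, with CD36+ NK at 0.141 to 0.149 below CD36- NK at 0.168 to 0.173.

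The wider pathway was examined with 69 other genes of heme and iron handling, of which 57 had enough counts to be tested. Of these, 6 were called higher and 1 lower in CD36+ NK, 12.3% of those tested against the 5.96% background, and their median log2 fold change was 0.36. When each library was left out in turn this count of 7 ranged from 1, without CD36- NK replicate 1, to 13, without CD36+ NK replicate 1, it was 2 on leaving out replicate 2 or 3 of CD36+ NK or replicate 3 of CD36- NK, and it was 9 on leaving out replicate 2 of CD36- NK. In heme capture and transport, 4 of 7 tested genes were called. Cd163, the scavenger receptor for haptoglobin and hemoglobin, rose with a log2 fold change of 2.67 (edgeR adjusted p = 0.0389), from 5.5 to 23.3 CPM in CD36- NK to 44.6 to 125 CPM in CD36+ NK. Slc48a1, which moves heme out of the phagolysosome, rose by 1.12 and Slc46a1, a carrier of heme and folate, by 1.90 on the log2 scale, the latter from at most 0.68 CPM. Abcg2, an exporter of porphyrins and many other compounds, was the gene that fell, with a log2 fold change of -1.49 (edgeR adjusted p = 0.00526), from 20.9 to 29.2 CPM to 7.4 to 10.2 CPM.

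The other roles held few calls, to be read against the 5.96% of all genes called. Among 13 tested genes of iron uptake, export and redox chemistry, Slc11a1 was called. It encodes NRAMP1, the metal transporter of the macrophage phagosome, and was measured at 158, 234 and 293 CPM in CD36+ NK and 45.8, 79.5 and 24.0 CPM in CD36- NK (log2 fold change 2.19, edgeR adjusted p = 0.0233). Hfe, a partner of the transferrin receptor that is mutated in hemochromatosis, was the 1 called of 6 tested genes of iron sensing and hepcidin regulation, at 125 to 271 CPM against 15.04 to 59.3 CPM (log2 fold change 2.58, edgeR adjusted p = 0.0237). DESeq2 called 2 of these 6, and 1143 of all genes. Tmprss6, a protease that restrains hepcidin, had few counts, at 0.53, 0 and 0 CPM in CD36+ NK and 1.77, 1.77 and 1.76 CPM in CD36- NK (edgeR adjusted p = 0.0574). Neither iron regulatory protein was called by edgeR, with log2 fold changes of 0.19 for Aco1 and -0.08 for Ireb2. Of the 3 tested genes of iron storage and chaperones, 0 were called by edgeR or DESeq2 and 1 had an unadjusted edgeR p below 0.05, where 26.3% of all genes did. This was Ncoa4, the receptor that brings ferritin to lysosomes, with a log2 fold change of 0.65 (edgeR adjusted p = 0.109). In heme synthesis, 1 of 9 tested genes was called. This was Alas2, the erythroid form of the first enzyme, at 13.2 to 28.7 CPM against 5.2 to 5.9 CPM (log2 fold change 1.82, edgeR adjusted p = 0.0133), and it is itself one of the erythroid markers that were higher in CD36+ NK.

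Of the 9 transcription factors of the pathway, 0 were called by edgeR and 1 by DESeq2, and 6 had an unadjusted edgeR p below 0.05, against the 26.3% of all genes. Of these, 4 passed the adjusted p but not the fold threshold, all higher, where 5.07% of all genes passed it with higher levels. They were Nfe2l2, which encodes NRF2, an activator of Hmox1 and the ferritin genes, and Bach1, the heme-sensing repressor of the same genes, with log2 fold changes of 0.61 and 0.46, and the macrophage factors Maf and Spi1 with 0.77 and 0.71. Nr1h3, which encodes the nuclear receptor LXR-alpha of Kupffer and red pulp macrophages, had a log2 fold change of 2.42 (edgeR adjusted p = 0.0538). Among 8 tested targets of NRF2 outside iron handling, 0 were called by edgeR or DESeq2, with log2 fold changes between -0.30 and 0.99. Of these, 4 had an unadjusted edgeR p below 0.05 (Prdx1, Gclm and Slc7a11 higher and Txnrd1 lower), against the same 26.3%, and 1 passed the adjusted p of DESeq2 without the fold threshold.

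**Figure D5:**
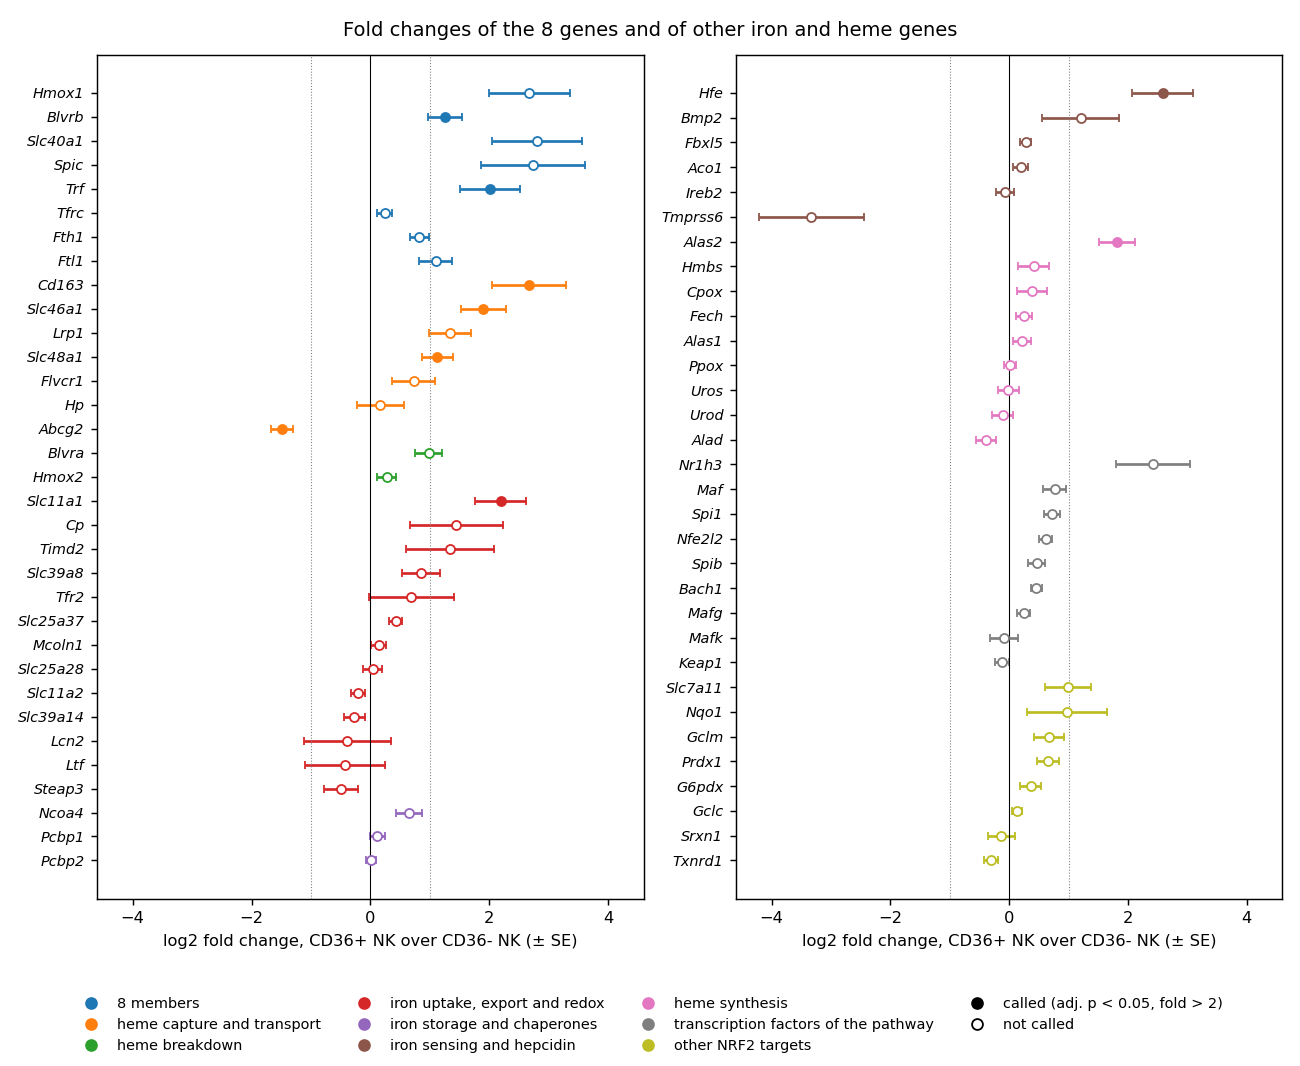
Log2 fold change of CD36+ NK over CD36- NK (x axis) with its SE for the 8 heme and iron recycling genes and for the 57 tested other genes, coloured by role, with filled symbols for called genes and dotted lines at a fold change of 2 in each direction. All 8 genes lie to the right of 0 and 2 are filled, and of the others 6 are filled to the right and Abcg2 alone to the left.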

How the data were processed

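Per the study's methods, the authors filtered reads with Seqtk, mapped them with HISAT2 2.0.4 and counted fragments per gene with StringTie. They deposited counts without normalization beside FPKM values, which are scaled by gene length and library total, in 1 table of 57180 genes. The broken lines of 2 genes were rejoined. Columns were matched to samples by library name, and groups follow the titles. The submitters' notes name a rat genome build although the identifiers are mouse, so the build is unresolved.

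Counts were fitted with edgeR 4.0.16 in R 4.3.3 (quasi-likelihood test, TMM, filterByExpr with a minimum count of 10, no block), leaving 14761 genes. The SE is the absolute log2 fold change over the square root of F. A gene was called at a fold change above 2 with a p, adjusted by Benjamini-Hochberg, below 0.05. Log2 CPM used a pseudocount of 2. Libraries within a group were further apart than sampling noise allows (chi-square per degree of freedom 13.5 to 26.5). Ratios of counts were compared by two-sided exact permutation. Strandedness of counting is not given in the sources used here. On simulated counts the script called 158 of 200 changed genes and 8 unchanged ones.

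Named genes were the 8 genes, called genes of the wider pathway, marker lists by sum and leading genes, and the 5 genes most like Slc40a1 and Hmox1. Others, among them Hmox2, Blvra, Clec4f and Vcam1, were named after their values were seen. A further gene considered for the wider pathway was left out of its list, counts and figure and is not reported here. The 8 genes and all lists were chosen with earlier results of these data known. Of marker lists whose sums are not given above, T cells summed to 26.1 to 251 against 22.9 to 27.7 CPM. Monocytes summed to 1047 to 1549 against 1097 to 1830 CPM and neutrophils to 562 to 3931 against 1375 to 3352 CPM. Dendritic cells summed to 73.9 to 99.4 against 41.8 to 74.2 CPM. Sinusoidal endothelium summed to 212 to 306 against 154 to 169 CPM, and hepatocytes to 2.0 to 12.8 against 0.088 to 1.7 CPM. The alternatives were DESeq2 1.42.0, other scaling factors, other filters, blocks, added pseudogene counts, and each library left out in turn.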

Additional observations from a re-analysis of the deposited data

How the results depend on the processing

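The direction of the 8 log2 fold changes was the same under all alternatives run, but calls lay near the threshold. The number of the 8 genes called, 2 as reported, was 5 with DESeq2 (Blvrb, Ftl1, Hmox1, Slc40a1 and Trf), 3 with RLE factors, 4 with upper-quartile factors (Blvrb, Ftl1, Hmox1 and Trf), 4 with 10 counts required in every library, 0 with no filter, and 1 with the form of the library name as a block (Slc40a1). Over all genes these settings, in the same order, called 1143, 878, 887, 716, 756 and 912 genes, against 880 as reported. When each library was left out in turn the number of the 8 genes called ranged from 0 to 4. It was 0 by edgeR without CD36+ NK replicate 2 or 3 and without CD36- NK replicate 1 or 3, where 6 or 7 of the 8 had an unadjusted p below 0.05, as did 7 with no filter (26.3% of all genes in the fit as reported). With no fold threshold 1552 genes and 13 of the other iron and heme genes were called. Leaving out libraries moved the 880 genes called to between 417 and 1160 and the 7 other iron and heme genes to between 1 and 13.

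The replicate block gave 560 genes, 0 of the 8 genes (8 at an unadjusted edgeR p below 0.05, and 5 called by DESeq2 without a block) and 2 other iron and heme genes. The labels do not say that a number marks a shared animal or batch, and the numbers were not taken as pairs, since deviations of same-numbered samples correlated at 0.310, 0.052 and -0.084. Only CD36+ NK replicate 1 correlated best with its own number, and the replicate 1 libraries also share a form of library name.

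Some ratios to macrophage genes turned with the reference, which was chosen after seeing the data. Relative to Adgre1, Hmox1 (0.47), Slc40a1 (0.79) and Spic (0.85) had the direction reported relative to Csf1r, as did Spic to C1qa (0.03) and Blvrb to all 3 other references (-2.29 to -1.22). The mean log2 difference of Hmox1, reported to Csf1r, was -0.35 to C1qa and -0.60 to Vcam1. That of Slc40a1 was -0.030 and -0.28, that of Spic -0.22 to Vcam1, and that of Trf -1.25 to C1qa, -0.43 to Adgre1 and -1.50 to Vcam1. The Trf to Csf1r difference ranged from -0.15, without CD36+ NK replicate 3, to 0.16 when libraries were left out. The cause was not tested. The 8 genes had from 66 to 19624 counts per library, and with 3 libraries per group the spread between libraries limits the precision.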
